A study of Mus musculus with 6 samples.

Results

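The Hand, Tbx and Gata factors are transcription factors that give embryonic mesoderm its position, in the heart, the limbs and the body wall. The 10 genes described here were Hand1, Hand2, Tbx2, Tbx3, Tbx4, Tbx5, Tbx15, Gata2, Gata4 and Gata6, out of 34797 genes named on the array. They were taken by gene symbol from the array's design and were read by 11 of its 55681 probes. They were chosen by the differences between WT, TIA1 KO and TIAR KO arrays in the authors' log2 table, where Hand2 and Tbx5 were seen to fall, so the differences of the members between groups are given as a description, with no p-value, and how many of them passed the rule for calls is a count that supports nothing. Expression was measured on Agilent 1-colour arrays in immortalized murine embryonic fibroblasts (MEF), cells that divide without limit, with 2 arrays per group. WT MEF were of strain W4 and carried no deletion, TIA1 KO MEF lacked TIA1 and were labelled BALB/c, and TIAR KO MEF lacked TIAR (gene Tial1) and were labelled C57BL/6; no treatment is labelled. Each group was thus 1 genotype in 1 strain background, and genotype, strain and the history of each line cannot be told apart, nor, for TIA1 KO MEF, the row of the slide, which held none of the WT or TIAR KO arrays. The study describes the arrays of a group as independent experiments on different biological samples. Whether these were separate cultures of 1 line is not said, so the spread between them may be partly technical.

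Hand factors are basic helix-loop-helix (bHLH) proteins that pair with E proteins and bind E boxes. T-box factors bind DNA through the T domain: Tbx5 is known for the forelimb and heart, Tbx4 for the hindlimb, Tbx2 and Tbx3 as repressors in heart and limb, and Tbx15 for the skeleton and skin of the trunk. Gata factors are zinc finger proteins that bind the GATA core: Gata2 is known for blood and endothelium, and Gata4 and Gata6 for heart, endoderm and mesothelium.

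All values are log2 intensities after background correction and normalization to a common distribution, and a difference of 1 is a fold of 2. A probe was called when the limma adjusted p over all 55681 probes was under 0.05 and the fold was above 2. Arrays differed before normalization: median intensities of the spots were 152 and 140 on the WT arrays, 458 and 218 on those of TIA1 KO, and 136 and 119 on those of TIAR KO MEF, and 16000 and 19920 probes stood well above background on the TIA1 KO arrays against 23531 to 26254 on the others. The correlation of replicate arrays across probes was 0.972 in TIA1 KO MEF, 0.989 in WT MEF and 0.988 in TIAR KO MEF.

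The genes named in the labels were read first. The brightest Tia1 probe gave 10.72 and 8.54 on the WT arrays, 7.87 and 8.44 on those of TIA1 KO, and 9.56 and 9.58 on those of TIAR KO MEF. Both TIA1 KO arrays were below both WT arrays, and the difference of -1.47 ± 0.79 (SE) between TIA1 KO and WT MEF did not pass the test (limma adjusted p = 0.288). The second Tia1 probe was also lower on both TIA1 KO arrays (-1.62 ± 0.42, limma adjusted p = 0.116), while the remaining probe went the other way (0.87 ± 0.28, limma adjusted p = 0.149), with 7.44 and 7.25 on the WT arrays, neither well above background, and 7.88 and 8.54 on those of TIA1 KO. A Tial1 probe gave 11.71 and 11.09 on the WT arrays, 11.85 and 11.49 on those of TIA1 KO, and 10.00 and 9.65 on those of TIAR KO MEF. Tial1 fell in TIAR KO MEF, by 1.58 ± 0.26 (SE; limma adjusted p = 0.0254), while the brighter Tial1 probe, which lost an outlier spot on WT replicate 1, differed by -2.63 ± 0.87 (limma adjusted p = 0.200). Whether these probes lie inside the deleted parts was not tested. By western blot and RT-PCR, the study reported no TIA1 mRNA or protein in TIA1 KO MEF, and none of TIAR in TIAR KO MEF. Gapdh, a glycolytic enzyme, differed by -0.04 ± 0.16 and 0.09 ± 0.14 in TIA1 KO and TIAR KO MEF (brightest probe).

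The cells carried most fibroblast markers. Of 10 markers, 7 stood clear of background on both WT arrays, 8 on both TIA1 KO arrays and 9 on both TIAR KO arrays. Vim and S100a4, a filament protein and a calcium-binding protein of mesenchymal cells, were bright in every group. Pdgfra, a growth factor receptor of fibroblasts, was at 6.37 and 6.40 in WT MEF, not well above background, while the TIA1 KO arrays read 10.05 and 10.23 and the TIAR KO arrays 11.68 and 11.51. Lum was not well above background on any array. Thy1 was at 6.63 and 6.98 in WT MEF, well above background on 1 of the arrays, and on neither TIA1 KO array. The label of fibroblast thus rested in WT MEF on the collagens, Fn1, Vim, Pdgfrb and S100a4, without Pdgfra, Lum and Thy1. Fibroblast markers were not the only ones present. The mesothelial markers Msln (16.47 and 15.78) and Krt19 (12.15 and 12.24) were also well above background on both WT arrays.

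Of the Hand genes, Hand2 was bright in WT MEF and at background in both knockouts, and Hand1 was near background in all groups. Hand2, a bHLH factor of the heart and the posterior limb bud, was read by a probe at chr8:59803220-59803279 (mm9). It gave 11.88 and 12.05 on the WT arrays, 7.98 and 6.99 on those of TIA1 KO, and 6.85 and 7.16 on those of TIAR KO MEF. Both WT arrays were far above the 4 knockout arrays, on none of which the probe was well above background. WT MEF exceeded TIA1 KO MEF at least 21.9-fold and TIAR KO MEF at least 30.6-fold. For such folds the dim group is set at the lowest value rated well above background on each array, or at the probe's own value if higher. That lowest value was 8.03 and 5.78 on the TIA1 KO arrays. Hand2 exceeded it on the second of these without being rated well above background. Folds given as at least a size, here and below, thus hold under this rule and are not strict limits. In the authors' own log2 table, whose values were used in choosing the members, Hand2 was at 11.84 and 11.90 on the WT arrays, 7.71 and 6.62 on those of TIA1 KO, and 7.02 and 7.09 on those of TIAR KO MEF. The knockouts overlapped in Hand2, and a level in either cannot be given.

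Hand1, a bHLH factor of the trophoblast, the heart and the lateral mesoderm, was close to background throughout. Its brighter probe (chr11:57642342-57642401) gave 6.94 and 7.01 on the WT arrays, 7.25 and 8.03 on those of TIA1 KO, and 6.82 and 6.78 on those of TIAR KO MEF. It was well above background on 1 TIA1 KO array and on no other. A second Hand1 probe (chr11:57646257-57646316) lay between 6.47 and 7.08 and was well above background on no array, so no fold is given for Hand1 in the text, and its plotted differences are those of the fit between dim probes.

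The stretch of sequence just before the Hand2 start, and that of Tbx4, are shown because these genes moved in opposite directions in TIA1 KO MEF, and because the members bind E boxes, GATA cores and T-box sites. RefSeq promoters (GRCm38.p6) were matched for 3 of the 10 members, Hand2, Tbx4 and Gata2. The 250 bases before the start of Hand2 (chr8:57320733-57320982, + strand) and of Tbx4 (chr11:85896515-85896764, + strand) are given 5' to 3', with capitals at every match, on either strand, to the E box CANNTG, the GATA core GATAA or the T-box site GGTGTGA.
Hand2: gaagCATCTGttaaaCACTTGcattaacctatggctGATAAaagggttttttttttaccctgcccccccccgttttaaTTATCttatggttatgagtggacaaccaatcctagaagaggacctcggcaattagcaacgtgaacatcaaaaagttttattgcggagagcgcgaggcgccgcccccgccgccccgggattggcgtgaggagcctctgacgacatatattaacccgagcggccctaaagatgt
Tbx4: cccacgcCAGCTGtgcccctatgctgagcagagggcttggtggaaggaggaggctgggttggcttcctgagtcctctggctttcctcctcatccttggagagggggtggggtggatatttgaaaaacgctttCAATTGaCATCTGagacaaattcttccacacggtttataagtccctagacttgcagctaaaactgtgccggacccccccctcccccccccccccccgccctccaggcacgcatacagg
The Hand2 window held 2 E boxes, whose first bases lie 246 and 235 bases before the start, and 2 GATA cores, at 214 and 172 bases. The Tbx4 window held 3 E boxes, at 243, 118 and 111 bases, and no GATA core. Neither held GGTGTGA. The windows of both Gata2 starts held none of these motifs. Of 32851 RefSeq promoters cut to the same 250 bases, 66.2% held CANNTG, 22.6% held GATAA and 3.3% held GGTGTGA, so matches of the first kind are common. These matches are letters in a window, and no binding was measured.

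The T-box genes did not move together. Tbx5, the forelimb and heart factor, was read at chr5:120334087-120334146 and gave 11.05 and 11.03 on the WT arrays, 6.97 and 7.58 on those of TIA1 KO, and 6.69 and 6.84 on those of TIAR KO MEF. As with Hand2, both WT arrays were high and no knockout array was well above background. WT MEF exceeded TIA1 KO MEF at least 9.43-fold and TIAR KO MEF at least 17.1-fold. The authors' table gave 10.96 and 10.88 on the WT arrays, 6.88 and 7.39 on those of TIA1 KO, and 6.68 and 6.74 on those of TIAR KO MEF.

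Tbx4, the hindlimb counterpart of Tbx5 (chr11:85729510-85729569), had the opposite pattern in TIA1 KO MEF. It gave 6.58 and 6.60 on the WT arrays, 10.50 and 10.50 on those of TIA1 KO, and 6.49 and 7.16 on those of TIAR KO MEF. The TIA1 KO arrays alone were well above background. TIA1 KO MEF exceeded WT MEF at least 12.2-fold and TIAR KO MEF at least 11.9-fold.

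Tbx3, a repressor needed in the limb and the mammary gland (chr5:120134511-120134570), gave 12.49 and 12.53 on the WT arrays, 9.82 and 9.87 on those of TIA1 KO, and 12.62 and 12.72 on those of TIAR KO MEF. It was lower in TIA1 KO MEF than in either other group, by 2.66 ± 0.15 (SE of the log2 difference, n = 2 arrays per group) below WT MEF and 2.82 ± 0.15 below TIAR KO MEF, and TIAR KO minus WT was 0.16 ± 0.14. On the TIA1 KO arrays the probe was well above background on 1 of 2. Its probe lay 199.6 kb from that of Tbx5 on chromosome 5, and the 2 genes differed in TIAR KO MEF, where Tbx5 was at background and Tbx3 was not. In the authors' table the TIA1 KO arrays read 8.90 and 9.95, and there Tbx3 was not called in either comparison with TIA1 KO MEF.

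Tbx2, which lies beside Tbx4 with probes 74.1 kb apart on chromosome 11 (chr11:85655391-85655450), stayed near background. It gave 7.02 and 7.05 on the WT arrays, 7.02 and 7.16 on those of TIA1 KO, and 7.46 and 7.51 on those of TIAR KO MEF, and it was well above background on 1 TIAR KO array. The TIA1 KO arrays, where Tbx4 was bright, showed no such level for Tbx2. Tbx15 (chr3:99157901-99157960) was bright on every array. It gave 12.63 and 13.17 on the WT arrays, 11.99 and 12.07 on those of TIA1 KO, and 13.56 and 13.02 on those of TIAR KO MEF. The TIA1 KO arrays were the lowest, at -0.87 ± 0.24 from WT MEF, and the TIAR KO arrays overlapped WT MEF (0.39 ± 0.27).

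**Figure D1:**
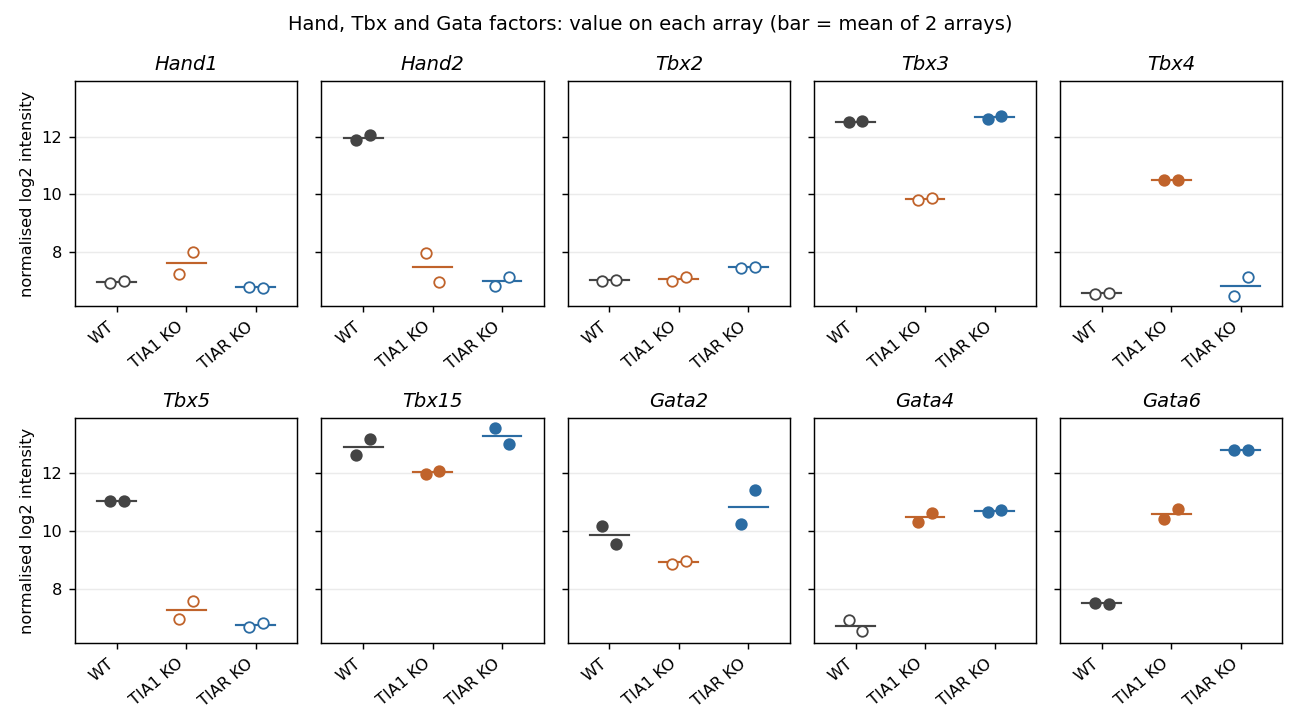
Normalised log2 intensity (vertical axis) of the brightest probe of each of the 10 genes on each of the 6 arrays, by group. Points are arrays, filled where both replicates stood well above background and open otherwise, and bars are means of 2 arrays; Hand2 and Tbx5 are bright in WT MEF alone, Tbx4 in TIA1 KO MEF alone, and Gata4 in both knockouts.

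Of the 3 Gata genes among the members, Gata4 and Gata6 were higher in both knockouts. Gata4 (chr14:63817858-63817917) gave 6.92 and 6.56 on the WT arrays, 10.31 and 10.64 on those of TIA1 KO, and 10.65 and 10.74 on those of TIAR KO MEF. All 4 knockout arrays were well above background and neither WT array was. TIA1 KO MEF exceeded WT MEF at least 12.0-fold and TIAR KO MEF exceeded it at least 14.0-fold, and TIAR KO minus TIA1 KO was 0.22. Gata6 (chr18:11085039-11085097) was above background in every group and formed a series. It gave 7.53 and 7.50 on the WT arrays, 10.42 and 10.75 on those of TIA1 KO, and 12.81 and 12.79 on those of TIAR KO MEF. No groups overlapped, and the log2 differences were 3.07 ± 0.19 for TIA1 KO minus WT, 5.28 ± 0.14 for TIAR KO minus WT and 2.21 ± 0.19 for TIAR KO minus TIA1 KO.

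Gata2, the blood and endothelial factor (chr6:88156362-88156421), behaved differently. It gave 10.18 and 9.55 on the WT arrays, 8.87 and 8.98 on those of TIA1 KO, and 10.25 and 11.44 on those of TIAR KO MEF. The TIA1 KO arrays were the lowest and the TIAR KO arrays the highest, with the nearest WT and TIAR KO arrays 10.18 and 10.25. The differences from WT MEF were -0.95 ± 0.26 and 0.97 ± 0.44, both under a fold of 2.

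In all, 6 of the 10 genes were called between TIA1 KO and WT MEF, Tbx4, Gata4 and Gata6 higher and Hand2, Tbx3 and Tbx5 lower. Of all probes 3.54% were called there, 2.18% higher and 1.36% lower. Between TIAR KO and WT MEF 4 genes were called, Gata4 and Gata6 higher and Hand2 and Tbx5 lower, against 5.76% of all probes, 3.39% higher and 2.37% lower. Between the knockouts 3 genes were called, Tbx3 and Gata6 higher and Tbx4 lower in TIAR KO MEF, against 3.35% of all probes, 1.72% higher and 1.63% lower. Counted by gene, each at its brightest probe as the members were, the shares called were 4.51%, 7.18% and 4.18% of 34797 genes in the 3 comparisons. The median size of the fitted log2 difference over the 10 genes was 2.87, 0.71 and 1.05 in the 3 comparisons (2.87, 0.68 and 0.95 with differences from a group at background set at their bounds), against 0.39, 0.20 and 0.35 over all probes. The genes were chosen with these comparisons known, and the knockouts share the WT arrays, so nothing is read from these counts. With either WT array left out, no member and no probe was called between TIA1 KO and WT MEF, though each of the 6 genes kept its direction (limma; 7202 and 7415 probes at an unadjusted p under 0.05). Calls between the knockouts were lost in the same way without either TIAR KO array (limma; 6318 and 6402 probes at an unadjusted p under 0.05). The all-probe split of calls also moved with scaling. Between TIA1 KO and WT MEF 61.6% of the 1969 calls were higher, against 11.6% of 16041 with arrays only scaled to a common median. Between TIAR KO and WT MEF these shares were 58.8% of 3206 and 33.6% of 4179. Between the knockouts 51.3% of 1866 were higher in TIAR KO MEF, and 87.1% of 8416 at a common median. With processed signals scaled to the 75th percentile the share between the knockouts was 8.3% of 1509.

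**Figure D2:**
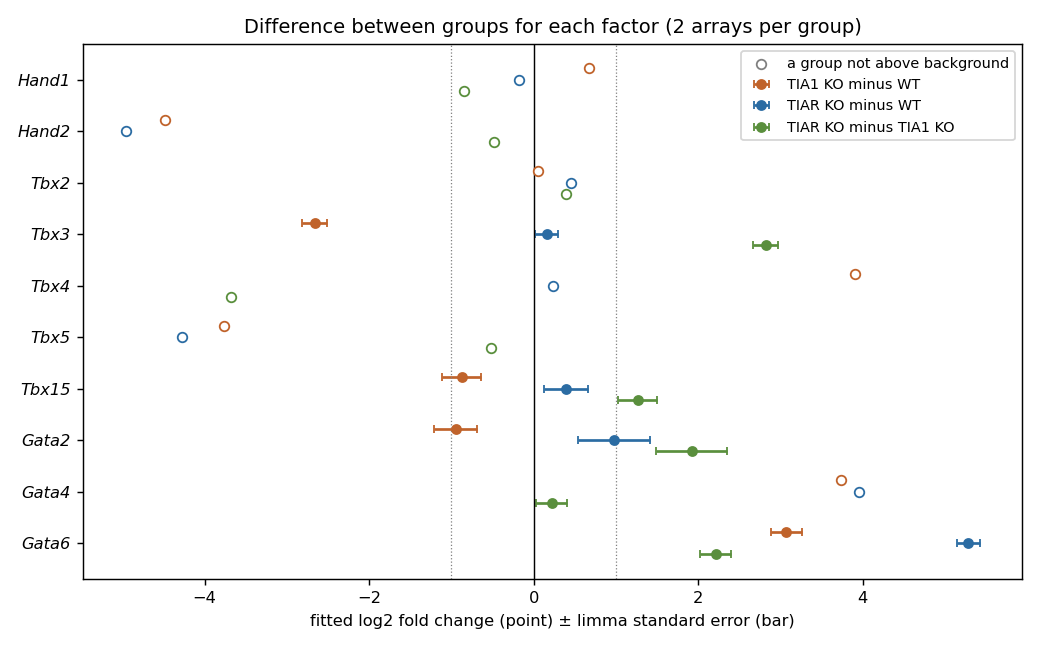
Fitted log2 fold change (horizontal axis) of each of the 10 genes in the 3 comparisons, with limma standard errors as bars, dotted lines at a fold of 2, and open points without bars where a group was well above background on neither array, which have no exact size. Tbx3 lies at -2.66 for TIA1 KO minus WT and at 0.16 for TIAR KO minus WT, and Gata6 at 3.07 and 5.28.

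The probes next to the members were then read. Neighbouring transcripts were not used in choosing the members, but they lie beside genes that were chosen by these comparisons. The array held 40 other probes within 100 kb of a member's probe, of which 15 stood well above background on both replicates of some group; 2 were called between TIA1 KO and WT MEF, both lower, and 6 between TIAR KO and WT MEF, 2 higher and 4 lower. These were 5% and 15% of the 40, against 3.54% and 5.76% of all probes, so the first share was near that of all probes. Several of the 40 may read 1 locus. Both calls in TIA1 KO MEF lay near Hand2. In TIAR KO MEF 2 lay near Hand2 and 2 near Tbx5, the genes seen to fall, so nothing is read from these shares. Near Hand2 there were 4 such neighbours, and the pair read above background, both on the opposite strand, was so in WT MEF alone. They entered through the group where they were high, so their number supports nothing and their differences are given as a description, with no p-value. The others, BB029192 (91 bases away) and 5033428I22Rik (10557 bases away), lay on the strand of Hand2 and were well above background on no array. AV026068, a transcript known to the array by its sequence identifier (chr8:59785891-59785950, 17.3 kb away), gave 12.11 and 11.00 on the WT arrays, 6.61 and 6.85 on those of TIA1 KO, and 6.71 and 6.53 on those of TIAR KO MEF. It was well above background in WT MEF alone, and WT MEF exceeded TIA1 KO MEF at least 17.4-fold and TIAR KO MEF at least 24.2-fold. TC1727594 (chr8:59792454-59792513, 10707 bases away) gave 9.24 and 9.37 on the WT arrays, 6.48 and 7.02 on those of TIA1 KO, and 7.03 and 6.99 on those of TIAR KO MEF. It too was above background in WT MEF alone, at least 3.43-fold over TIA1 KO MEF and at least 4.55-fold over TIAR KO MEF. The array's probes are strand-specific by design, and the identity of these transcripts was taken no further.

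Near Tbx5, both probes above background were for long intergenic non-coding RNAs on the opposite strand. The nearer probe (chr5:120280943-120281002, 53.1 kb away) gave 10.37 and 10.65 on the WT arrays, 9.85 and 7.71 on those of TIA1 KO, and 6.64 and 6.96 on those of TIAR KO MEF. It fell in TIAR KO MEF, by at least 11.97-fold, and the TIA1 KO arrays lay wide apart (-1.73 ± 0.75). This probe entered through WT MEF alone, so its differences are a description. The other probe (chr5:120279227-120279286, 54.8 kb away) fell in TIAR KO MEF by 1.06 ± 0.18 (limma adjusted p = 0.0270). On neither TIA1 KO array was it well above background, and WT MEF exceeded TIA1 KO MEF at least 2.16-fold there, which missed the threshold (limma adjusted p = 0.0520). The spans that the design gives these RNAs overlap, so the probes may read 1 locus.

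Near Gata6, 1010001N08Rik on the opposite strand (35.9 kb away) rose in TIAR KO MEF. It gave 6.86 and 6.84 on the WT arrays and 6.64 and 6.61 on those of TIA1 KO. The TIAR KO arrays read 8.41 and 7.98, at least 2.27-fold over WT MEF. It entered through TIAR KO MEF alone, so this is a description. In TIA1 KO MEF, where Gata6 itself was higher, it was not well above background. Near Hand1, Galnt10, a glycosyltransferase gene, rose in TIAR KO MEF by 1.58 ± 0.25 (limma adjusted p = 0.0237), and Sap30l (0.83 ± 0.22 for TIA1 KO and 0.66 ± 0.20 for TIAR KO minus WT) was not called. TC1610347, also near Hand1, was well above background in TIAR KO MEF alone and was not called. Near Tbx2 and Tbx4, none of the probes for Bcas3, 2610027K06Rik and NAP025704-001 was called. The same held for Eefsec near Gata2, and for Ctsb and Fdft1 near Gata4. The rise of Tbx4 in TIA1 KO MEF thus had no called neighbour within 100 kb.

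**Figure D3:**
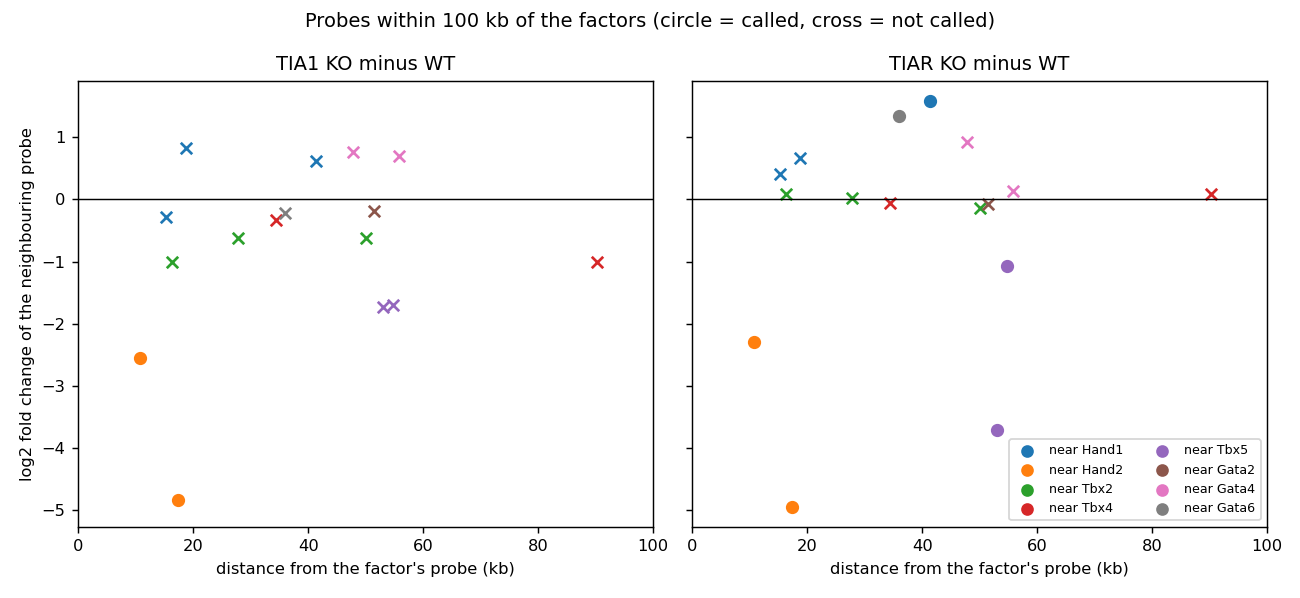
Log2 fold change (vertical axis) of the probes above background within 100 kb of a member's probe against their distance from it in kb (horizontal axis), coloured by member, with circles for called and crosses for not called probes. Both plotted probes near Hand2 lie below 0 and are called in both panels; the knockouts were at background there, so their fitted positions are not exact sizes.

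The genes of related lists were then read, each at its brightest probe. The lists were written with earlier results of these data known. Of all 34797 genes, 4.51% were called between TIA1 KO and WT MEF and 7.18% between TIAR KO and WT MEF. The counts of the lists and markers stand beside these shares. Genes were named mainly because they were called, so their p-values are no independent support. Called genes that were well above background on neither array of the lower group are given as a description, with no p-value. Other T-box genes were mostly at background. Of 12, 5 were above background in any group and 1 was called: Tbx1, a factor of the pharyngeal arches, rose in TIAR KO MEF. Tbx1 gave 6.62 and 6.54 on the WT arrays, 6.52 and 6.90 on those of TIA1 KO, and 10.93 and 10.69 on those of TIAR KO MEF. TIAR KO MEF alone were above background, at least 15.2-fold over WT MEF. The list's median log2 difference from WT MEF was -0.23 (TIA1 KO) and -0.11 (TIAR KO), against -0.09 and -0.02 over all probes.

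Of 8 other GATA-type zinc finger genes and FOG cofactors, 1 rose and 1 fell in TIA1 KO MEF, and 2 rose and 1 fell in TIAR KO MEF (list medians -0.37 and -0.28). Gata3, a factor of T cells and of several epithelia, gave 7.68 and 7.81 on the WT arrays, 12.15 and 12.32 on those of TIA1 KO, and 11.40 and 11.57 on those of TIAR KO MEF. It rose in both knockouts, by 4.49 ± 0.16 (limma adjusted p = 0.00418) and 3.74 ± 0.15 (limma adjusted p = 0.000367), as Gata4 and Gata6 did. Gata5, well above background in every group, did not, at -0.37 ± 0.32 and 0.13 ± 0.33 from WT MEF (limma adjusted p = 0.473 and 0.889). Gata1 was well above background on no array. Trps1, an atypical GATA-type repressor of the growth plate, fell in both, by 1.14 ± 0.16 (limma adjusted p = 0.0476) and 1.28 ± 0.16 (limma adjusted p = 0.0109). Zfpm1, the Gata cofactor FOG1, rose in TIAR KO MEF by 1.68 ± 0.20 (limma adjusted p = 0.0100).

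Of 13 bHLH partners and relatives of Hand, 2 fell in TIA1 KO MEF, and 3 rose and 1 fell in TIAR KO MEF (list medians 0.11 and 0.54). Those that fell in TIA1 KO MEF were Id1 (by 1.57 ± 0.17, limma adjusted p = 0.0283) and Id2 (by 1.71 ± 0.22, limma adjusted p = 0.0420), which block E proteins by pairing with them. In TIAR KO MEF Id4, of the same family, rose by 2.03 ± 0.18 (limma adjusted p = 0.00341). Scx, a tendon factor, and Tcf4, an E protein, rose there by 1.16 ± 0.15 (limma adjusted p = 0.0112) and 1.11 ± 0.22 (limma adjusted p = 0.0445), and Twist2, a dermal factor, fell by 1.25 ± 0.22 (limma adjusted p = 0.0336).

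Of 25 limb and body wall genes 5 rose in TIA1 KO MEF and none fell, and 2 rose and 2 fell in TIAR KO MEF (list medians 0.22 in each). Pitx1, which specifies the hindlimb and acts upstream of Tbx4, gave 6.48 and 6.52 on the WT arrays, 13.38 and 13.55 on those of TIA1 KO, and 6.79 and 6.84 on those of TIAR KO MEF. As for Tbx4, the TIA1 KO arrays alone were above background, at least 95.6-fold over WT MEF, which is a description. Grem1, a secreted BMP antagonist of the limb bud, gave 7.03 and 7.10 on the WT arrays, 12.63 and 12.54 on those of TIA1 KO, and 6.71 and 7.05 on those of TIAR KO MEF. It rose in TIA1 KO MEF, by a fitted 5.52 ± 0.15 (limma adjusted p = 0.00362), with the probe well above background on 1 of the 2 WT arrays. Sall1, a zinc finger factor of limb and kidney, was at least 5.28-fold higher in TIA1 KO than in WT MEF. Msx1, a homeobox factor, rose there by 2.11 ± 0.23 (limma adjusted p = 0.0298).

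Meis1, a homeobox cofactor of the proximal limb, rose in both knockouts, by 1.47 ± 0.15 in TIA1 KO MEF (limma adjusted p = 0.0264) and by 3.20 ± 0.14 in TIAR KO MEF (limma adjusted p = 0.000440). In TIAR KO MEF the mesenchymal factor Prrx1 rose by 1.96 ± 0.38 (limma adjusted p = 0.0422). There Osr1, a factor of intermediate mesoderm, fell by 2.52 ± 0.16 (limma adjusted p = 0.00117), and Fgf10, the growth factor that starts limb outgrowth and is a known target of Tbx5, fell by 2.36 ± 0.17 (limma adjusted p = 0.00195). Fgf10 gave 10.08 and 10.43 on the WT arrays, 10.15 and 10.65 on those of TIA1 KO, and 7.85 and 7.93 on those of TIAR KO MEF. The Fgf10 arrays of TIA1 KO MEF overlapped those of WT MEF. Tbx5 was at background in both knockouts, and a link between these 2 genes was not tested.

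Of 12 cardiac partner factors, Hopx, a homeodomain-only protein, was at least 9.97-fold higher in TIA1 KO than in WT MEF. Hey1, a Notch target, was at least 3.90-fold higher in TIAR KO than in WT MEF. No other was called (list medians -0.06 and 0.15). Of 14 known targets of the factors, 1 rose and 1 fell in TIA1 KO MEF, and 2 rose and 1 fell in TIAR KO MEF (list medians 0.30 and 0.11). The gap junction gene Gja1, which Tbx2 and Tbx3 can repress, rose in TIA1 KO MEF by 1.39 ± 0.19 (limma adjusted p = 0.0467). Cdkn2a, a cell cycle inhibitor gene that Tbx2 and Tbx3 can repress, fell there by 3.18 ± 0.15 (limma adjusted p = 0.00582). Tbx3 was lower there too, and links between the factors and these targets were not tested. In TIAR KO MEF Nppb, a natriuretic peptide gene activated by Gata4, rose by 1.65 ± 0.15 (limma adjusted p = 0.00398), Dab2, an endocytic adaptor activated by Gata6, rose by 1.18 ± 0.16 (limma adjusted p = 0.0153), and Cdkn1a, another cell cycle inhibitor, fell by 2.13 ± 0.16 (limma adjusted p = 0.00189). Most heart targets, Nppa, Myh6, Actc1, Gja5 and Bmp10 among them, stood clear of background on both replicates of no group, so no change could be read for them. As for the members, every call between TIA1 KO and WT MEF was lost when either WT array was left out, and 3 of the limb genes were called in TIA1 KO MEF with the authors' table.

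**Figure D4:**
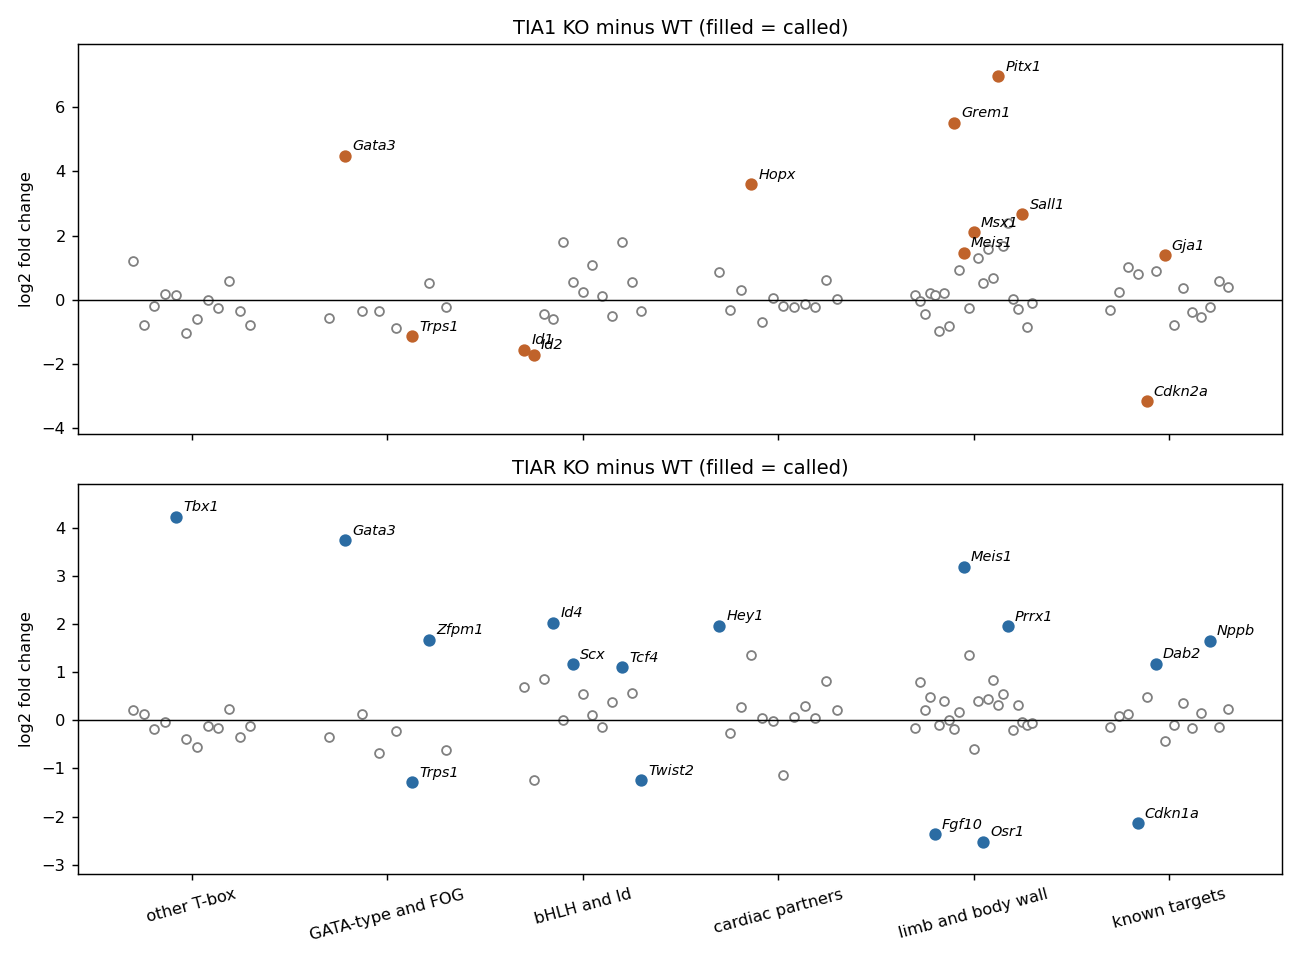
Fitted log2 fold change (vertical axis) of each gene of the 6 related lists (horizontal axis) for TIA1 KO minus WT and TIAR KO minus WT, with called genes filled and named. Gata3 lies at 4.49 and 3.74; points of genes at background in a group, such as Pitx1 in TIA1 KO and Tbx1 in TIAR KO against WT MEF, are not exact sizes.

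Markers of cell types in which these factors are known were read next. Of 10 fibroblast markers 6 rose in the knockout of TIA1 and 7 in that of TIAR, where Gata4 and Gata6 were higher too, and none fell in either knockout. Col3a1, a fibrillar collagen, rose by 6.32 ± 0.21 (limma adjusted p = 0.00369) and 6.60 ± 0.50 (limma adjusted p = 0.00206), and Thy1, a surface glycoprotein, by a fitted 7.98 ± 0.18 in TIAR KO MEF (limma adjusted p = 0.000176), with 1 of the 2 WT arrays well above background. Afp and Krt18 were likewise well above background on 1 WT array. The linear levels of the 10 summed to 533499 and 567114 on the WT arrays, 1314276 and 1289143 on those of TIA1 KO, and 1340303 and 1361091 on those of TIAR KO MEF, with S100a4 or Col1a2 the brightest probe. Probes differ in brightness for the same level of RNA, so the sum, higher on all 4 knockout arrays, gives most weight to the brightest of them.

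Of 5 markers of mesothelium, a tissue that expresses Gata4 and Gata6, 3 rose and 1 fell in TIAR KO MEF. Upk3b gave 6.84 and 6.31 on the WT arrays, 6.35 and 7.42 on those of TIA1 KO, and 13.95 and 14.15 on those of TIAR KO MEF. TIAR KO MEF alone were above background, at least 143-fold over WT MEF. Wt1 was at least 16.3-fold and Lrrn4 at least 4.91-fold higher in TIAR KO than in WT MEF. Msln, a surface protein of mesothelium, fell there by 1.62 ± 0.26 (limma adjusted p = 0.0249). The summed level, with Msln the brightest probe on every array, was lower in TIAR KO MEF, at 50483 and 47068, than in WT MEF (95306 and 61524) and TIA1 KO MEF (251488 and 219148). In TIA1 KO MEF, where Gata4 was at 10.31 and 10.64, Krt19 alone of the 5 was called (1.05 ± 0.15, limma adjusted p = 0.0498).

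Of 4 endoderm markers 2 rose in TIAR KO MEF, and of 4 epithelial markers 3. Foxa2, an endoderm factor, was at least 40.9-fold higher than in WT MEF, and Afp rose by 1.30 ± 0.14 (limma adjusted p = 0.00672). Sox17 was well above background on 1 TIA1 KO array at most and Sox7 on none. The keratin genes Krt18 and Krt8 rose by 2.72 ± 0.14 (limma adjusted p = 0.000707) and 1.23 ± 0.15 (limma adjusted p = 0.00990). Cdh1 was at least 2.53-fold higher, and Epcam was not called. In TIA1 KO MEF Krt8 alone of these rose (1.23 ± 0.17, limma adjusted p = 0.0444).

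Of 7 cardiomyocyte markers, Myl7, an atrial myosin light chain, was called, at least 14.0-fold higher in TIAR KO than in WT MEF. Myh6 and Ryr2 were not well above background on any array. Tnnt2, the brightest probe in WT MEF, gave 11.62 and 10.03 on the WT arrays, 7.28 and 7.72 on those of TIA1 KO, and 10.20 and 11.20 on those of TIAR KO MEF. It was not well above background in TIA1 KO MEF, and the difference from WT MEF missed the threshold (limma adjusted p = 0.0721). Of 6 endothelial markers, Kdr was well above background on all 6 arrays (11.23 to 11.65) and Pecam1 on those of WT and TIAR KO MEF (7.86 to 8.16), Tek was on 1 TIAR KO array, Cdh5, Tie1 and Emcn were on none, and none was called. Of 5 blood markers, the myeloid genes Itgam and Cd68 were well above background on all 6 arrays and Ptprc, Spi1 and Tal1 on none, and Itgam alone was called, higher in TIA1 KO MEF (1.82 ± 0.24, limma adjusted p = 0.0415). The part of these marker changes in the values of the Hand, Tbx and Gata genes was not tested, and in such bulk samples fewer cells of a type and less RNA per cell cannot be told apart.

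The genes most like Hand2 and Tbx5 over the 6 arrays were sought among 1652 genes above background in a group and with an SD over the arrays above 1. For Hand2 they were Mab21l1, Rdm1, Arl2bp, Efcab5 and Rgs2, with Pearson's r of 0.998 to 0.990, and for Tbx5 they were Nlrc5, 4921509J17Rik, H2-Q8, a non-coding RNA of chromosome 1 and Reep1, with r of 0.997 to 0.994. Mab21l1 gave 9.08 and 9.28 in WT MEF and 6.90 to 7.32 on the 4 knockout arrays. Hand2 and Tbx5 themselves had an r of 0.976, Hand2 and Gata4 of -0.994, and Tbx3 and Tbx4 of -0.986. These correlations rest on 3 groups of 2 arrays and, for the members, on the differences by which they were chosen, so nothing is read from them. Hand2 and Tbx5 were well above background on no knockout array, so their correlations mainly set WT MEF against the knockouts.

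**Figure D5:**
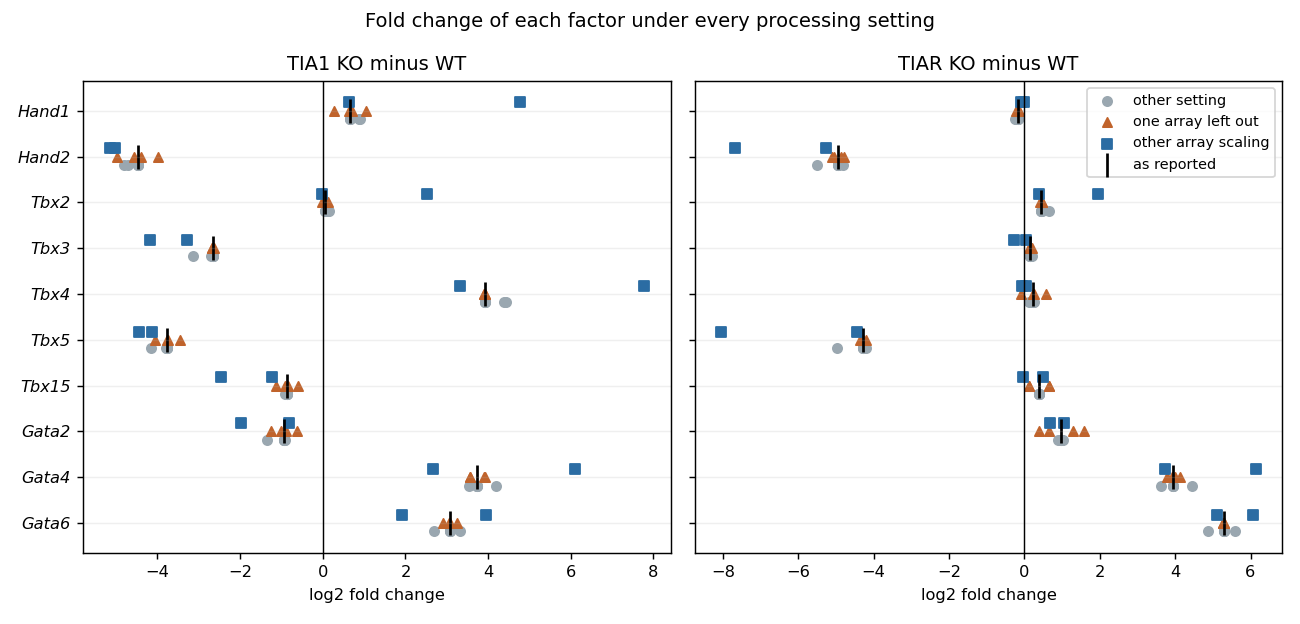
Log2 fold change (horizontal axis) of each of the 10 genes for TIA1 KO minus WT and TIAR KO minus WT as reported (bar) and under other array scalings (squares), with 1 array left out (triangles) and under other settings (circles). The genes called as reported stay on their side of 0 under all of these settings; Tbx3 and Tbx15 cross 0 for TIAR KO minus WT when arrays are scaled to a common median (-0.28 and -0.04).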

How the data were processed

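Total RNA of 6 immortalized MEF samples, 2 per group, was labelled with Cy3 and hybridised to Agilent SurePrint G3 mouse arrays by the authors. The deposited scanner files held intensity values per spot (mean signal and local background), and the authors' deposited table held log2 values normalized with limma; it correlated with the values used here at r of 0.997 or more on each array. Here mean signals were corrected with normexp (offset 50), put on the log2 scale, normalised by cyclic loess and quantiles, and averaged per probe, without control and outlier spots (R 4.3.3, limma 3.58.1). A limma model was fitted to the 4 arrays of each comparison, and calls needed a fold above 2 and an adjusted p (Benjamini-Hochberg, over 55681 probes) under 0.05. The number of arrays limits the precision. A gene was read by its brightest probe, with further probes given for Hand1, Tia1 and Tial1. The fall of Tial1 that passed the test was that of its dimmer probe. The members and the gene lists were chosen with earlier results of these data known.

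The named genes were all members, Tia1, Tial1 and Gapdh, of each list up to 4 called genes with the largest change against WT that were well above background in the higher group, the 5 genes most like Hand2 and Tbx5, and every probe above background within 100 kb of a member; the other genes named were added after their values were seen. Probe positions are those of the array files (mm9), and promoters are from RefSeq (GRCm38.p6; Python 3, pandas). Alternatives were another offset, scanner processed signals, a common median, the authors' table, a dim-probe filter, outliers kept, 1 fit of all groups, the replicate number as a block, and leaving out each array. All arrays lay on 1 slide, those of TIA1 KO MEF in another row of it.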

Additional observations from a re-analysis of the deposited data

Results flagged for a closer look

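Tbx3 and Gata2 lay on opposite sides of WT MEF in the knockouts, with both arrays of TIA1 KO MEF below and both arrays of TIAR KO MEF above the WT arrays. For Tbx3 the log2 differences from WT MEF were -2.66 (TIA1 KO) and 0.16 (TIAR KO), and the latter was -0.28 when arrays were scaled to a common median. For Gata2 they were -0.95 and 0.97. The knockouts differed by 2.82 (Tbx3) and 1.92 (Gata2); Tbx3 passed the rule for calls between them and Gata2 did not, and since these comparisons chose the genes, nothing is read from this.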

How the results depend on the processing

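All calls of members kept their direction under every alternative that gave a value; over the 3 comparisons, 309 member differences stayed on their side of the rule for calls, 30 lost the call, 9 gained it and 3 crossed 0 by more than the replicate spread without a call. Between TIA1 KO and WT MEF the processed signal scaled to the 75th percentile called 0 members and 0 probes (limma; 27765 at an unadjusted p under 0.05), and it moved the median of all probes to 1.98, as did a common median, to -0.68, so directions there are relative to those shifts. A common median called 16041 probes there and 8416 between the knockouts, with 5 members. The authors' table called 1309 probes between TIA1 KO and WT MEF, 1 fit of all groups called 3986 there and 3183 between the knockouts, and probes well above background alone gave 2910 between the knockouts. With 1 array left out, calls between TIA1 KO and WT MEF ranged from 0 (without WT replicate 1 or replicate 2; limma, 7202 and 7415 at an unadjusted p under 0.05) to 10735 probes and from 0 to 6 members. Between the knockouts they ranged from 0 (without TIAR KO replicate 1 or replicate 2; 6318 and 6402 at an unadjusted p under 0.05) to 10086 probes and from 0 to 4 members. Between TIAR KO and WT MEF, 4 members were called under each alternative. These fits take the lone array to vary as the other group does. The counts of called list genes moved by over 1.5 times under 147 of the list alternatives and not under 321.

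Deviations of same-numbered arrays correlated across probes at 0.078 (TIA1 KO and WT), 0.030 (TIAR KO and WT) and -0.073 (the knockouts). These values gave no sign that replicate numbers pair the samples. Each group has 1 such deviation per probe, so whether same-numbered samples were handled together cannot be settled from them. With the replicate number as a block, 671 probes and 6 members were called between TIA1 KO and WT MEF, 3308 and 4 between TIAR KO and WT MEF, and 0 and 0 between the knockouts (limma; 10684 probes at an unadjusted p under 0.05). Signal over background limits Hand1 and Tbx2 on all groups, Hand2 and Tbx5 in the knockouts, Tbx4 in WT and TIAR KO MEF, Gata4 in WT MEF, and Tbx3 and Gata2 on 1 of 2 TIA1 KO arrays.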
